A study of Saccharomyces cerevisiae with 2 samples.

Results

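The 10 budding yeast genes that make, elongate and desaturate fatty acids were compared between 2 arrays. The labels give 1 array to cells on dietary restriction (DR) medium with 0.5% glucose and 1 to cells on ad libitum (AL) medium with 2.0% glucose. The genes were ACC1, FAS1, FAS2, OLE1, ELO1, ELO2, ELO3, IFA38, PHS1 and TSC13, chosen by symbol for their role, with earlier results of these arrays known. All 10 were measured, each by 1 probe set, among 5449 Saccharomyces cerevisiae genes. Each array came from a single culture. Both cultures were wild-type BY4742, a haploid of mating type alpha that carries his3Delta1, leu2Delta0, lys2Delta0 and ura3Delta0, grown for 12 hours at 30°C on media that otherwise held the same 1% yeast extract and peptone.

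Fatty acids are built from acetyl-CoA. Acetyl-CoA carboxylase makes malonyl-CoA, the fatty acid synthase complex of the cytosol joins malonyl units into chains of the palmitate and stearate class, and a desaturase of the endoplasmic reticulum puts a double bond into them. For the very long chains of sphingolipids, enzymes in the same membrane repeat a cycle of condensation, reduction, dehydration and a second reduction. Yeast is known for choosing between making and burning fatty acids by its carbon source, since beta-oxidation genes are repressed by glucose.

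The deposited values were linear signal intensities, normalized by the authors' service laboratory, with medians over all 10928 probe sets of 48.5 on the DR-labelled and 55.75 on the AL-labelled array. Each value is a single array, so no test was possible, no p-value is given and the precision is limited by the number of arrays. Within the arrays, 47 genes had several probe sets, whose log2 ratios differed within a gene by a median of 0.69. Such probe sets read the same RNA, so this value does not measure variation between cultures or arrays. Background was taken as the highest signal among 9 genes deleted in the strain or silent in alpha cells, 129.4 on the DR-labelled and 281.6 on the AL-labelled array. Both values were those of STE6, and the next highest of these genes, STE2, had 56.6 on the DR-labelled and 152.6 on the AL-labelled array. URA3, LYS2 and LEU2 lay at 1.20 to 24.6 on the DR-labelled and at 8.30 to 17.0 on the AL-labelled array. The alpha-specific genes STE3, SAG1, MF(ALPHA)1 and MF(ALPHA)2 lay at 5174 to 6278 on the DR-labelled and at 222.6 to 1217 on the AL-labelled array. The lowest of these, MF(ALPHA)2 at 222.6, was itself under the background of the AL-labelled array.

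Most of the fatty acid genes had higher signals on the DR-labelled array. The ratio of the DR-labelled array over the AL-labelled array was above 1 for 9 of 10 genes, and 6 were more than 2-fold higher on the DR-labelled array: ELO3, ELO2, PHS1, IFA38, FAS1 and FAS2. No gene was more than 2-fold higher on the AL-labelled array. Of all genes, 20.5% were past 2-fold in the first direction and 24.3% in the second. A ratio above 1 was found for 2487 of all 5449 genes. The median log2 ratio was 1.20 over the 10 genes and −0.12 over all genes. This direction opposes that of the study's own tables. DAP2, a gene outside these lists, is given there a higher level on DR. Its signals here were 1556.3 on the DR-labelled and 1901.7 on the AL-labelled array. The labels are kept as deposited, and with the labels exchanged every log2 ratio would have the opposite sign, and each number or share of genes given as having a higher ratio would be of those with a lower one.

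**Figure D1:**
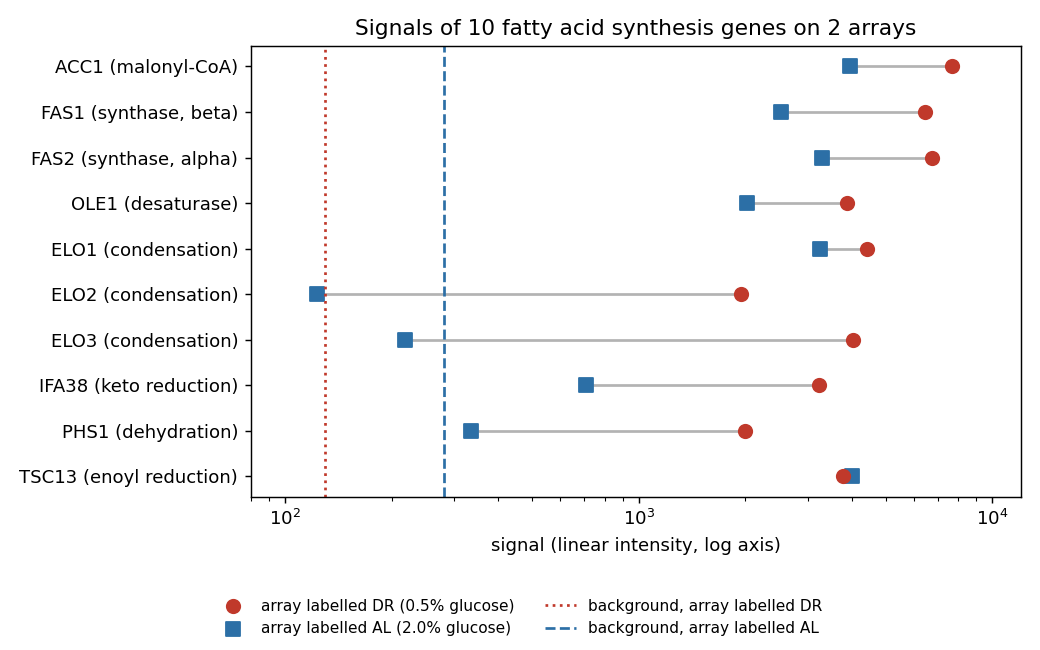
Signal of each gene on the DR-labelled array (red circles) and on the AL-labelled array (blue squares), as linear intensity on a log axis, with the background of each array as a vertical line. The circles of 9 genes lie to the right of their squares, and the squares of ELO2 (123.0) and ELO3 (218.8) lie left of the background of the AL-labelled array.

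The enzymes that build the chain in the cytosol stood close to a 2-fold difference. ACC1 (YNR016C), the biotin-dependent carboxylase that commits acetyl-CoA to fatty acids, had a signal of 7675 on the DR-labelled and 3953 on the AL-labelled array, a ratio of 1.94. FAS1 (YKL182W), the beta subunit of the synthase, had 6463 on the DR-labelled and 2528 on the AL-labelled array, a ratio of 2.56. FAS2 (YPL231W), the alpha subunit, which carries the acyl carrier domain, had 6759 on the DR-labelled and 3285 on the AL-labelled array, a ratio of 2.06. The subunits of the synthase thus stood on the same side, and their log2 ratios differed by 0.31. Each subunit had 1 probe set on 1 array per condition, so the precision of this difference is not known. The log2 ratio of ACC1 lay 0.08 below that of FAS2, so the 2-fold threshold passes between genes whose ratios are nearly equal. Among all genes, 14.5% had a higher ratio than FAS1, 19.7% than FAS2 and 21.2% than ACC1.

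The array also holds probe sets named fas1 and fas2 in lower case, whose gene identifiers are not in the S. cerevisiae gene table. Their signals were 11.3 and 2.0 on the DR-labelled array and 7.4 and 3.0 on the AL-labelled array, all under background. They were not counted as FAS1 and FAS2.

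OLE1 (YGL055W), the stearoyl-CoA desaturase that makes the monounsaturated fatty acids of yeast, had a signal of 3883 on the DR-labelled and 2028 on the AL-labelled array. Its ratio of 1.91 fell just short of 2-fold and lay beside that of ACC1, with log2 ratios 0.02 apart. Desaturation needs electrons that pass through cytochrome b5 domains. NCP1, the NADPH-cytochrome P450 reductase, had 5271 on the DR-labelled and 1697 on the AL-labelled array, and CYB5, cytochrome b5, had 390.3 on the DR-labelled and 127.9 on the AL-labelled array, where it lay under background. The remaining pair was within 2-fold: CBR1, the microsomal cytochrome b5 reductase, had a log2 ratio of 0.61, and MCR1, its mitochondrial counterpart, one of −0.89. These 4 genes had a median log2 ratio of 1.11, or 0.54 once signals below background were raised to it.

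Known regulators of these genes stood mostly the other way. The list held 14 genes that encode activators and repressors of OLE1, FAS1, FAS2 and ACC1 or act on them. At 2-fold, 0 were higher on the DR-labelled array (20.5% of all genes) and 7 on the AL-labelled array (24.3%). The median log2 ratio was −1.03. INO4, a subunit of the activator that binds the inositol-responsive element of lipid genes, had a signal of 192.1 on the DR-labelled and 735.4 on the AL-labelled array. ROX1, the repressor of hypoxic genes, had 1097 on the DR-labelled and 4079 on the AL-labelled array. RSP5, a ubiquitin ligase that activates the OLE1 regulators, had 3215 on the DR-labelled and 2808 on the AL-labelled array, a log2 ratio of 0.20. INO2, the partner of INO4, had 156.1 on the DR-labelled and 120.3 on the AL-labelled array, where it was under background, and its log2 ratio of 0.38 as deposited became −0.85 with that signal raised to background.

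MGA2 and SPT23, the membrane-bound activators of OLE1, were looked at after the values were seen. MGA2 had a signal of 521.5 on the DR-labelled and 1624 on the AL-labelled array, and SPT23 had 538.8 on the DR-labelled and 1881 on the AL-labelled array. Both activators were thus more than 3-fold higher on the AL-labelled array, while OLE1 itself had its higher signal on the DR-labelled array. These are signals of transcripts, and the cleavage that activates both proteins was not measured.

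The condensing enzymes of elongation included the genes that differed most among the 10, ELO3 and ELO2, and one that differed little, ELO1. ELO3 (YLR372W), which makes the longest chains, reached 4025 on the DR-labelled and 218.8 on the AL-labelled array. ELO2 (YCR034W), which makes the chains just below them in length, had 1947 on the DR-labelled and 123.0 on the AL-labelled array. ELO1 (YJL196C), which extends medium-length chains, had 4427 on the DR-labelled and 3256 on the AL-labelled array. The very long chain elongases ELO2 and ELO3 therefore stood apart from ELO1: the ratios as deposited were 18.4 for ELO3, 15.8 for ELO2 and 1.36 for ELO1.

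As deposited, 27 genes of 5449 had a higher ratio than ELO3, 41 than ELO2 and 1792 than ELO1, and with signals under background raised to it for all genes these numbers were 22, 94 and 1377. On the log2 scale the ratio of ELO3 exceeded that of ELO1 by 3.76 and that of ELO2 by 0.22. Both very long chain elongases lay under background on the AL-labelled array, so their ratios there are bounds. That background is the signal of STE6 alone. The next highest background gene there, STE2, had 152.6, which ELO3 (218.8) exceeded and ELO2 (123.0) did not. With that signal set at background, ELO3 was at least 14.3-fold and ELO2 at least 6.91-fold higher on the DR-labelled array, still above the ratio of ELO1.

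The other enzymes of the elongation cycle split between its steps. IFA38 (YBR159W), the ketoacyl reductase of the cycle, had a signal of 3223 on the DR-labelled and 710.8 on the AL-labelled array, a ratio of 4.53. PHS1 (YJL097W), the hydroxyacyl dehydratase, had 2001 on the DR-labelled and 335.4 on the AL-labelled array, a ratio of 5.96. TSC13 (YDL015C), the enoyl reductase that closes the cycle, had 3779 on the DR-labelled and 4017 on the AL-labelled array, a ratio of 0.94. The middle steps of the cycle were thus higher on the DR-labelled array, and the last step differed little between the arrays.

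IFA38 and PHS1 lay above background on both arrays, and 6.35% and 3.98% of all genes had a higher ratio, against 49.0% for TSC13. Their log2 ratios differed from each other by 0.40, and the lower of them exceeded that of TSC13 by 2.27. The sign of the small TSC13 difference was not stable, since its log2 ratio of −0.09 became 0.03 after median centring.

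**Figure D2:**
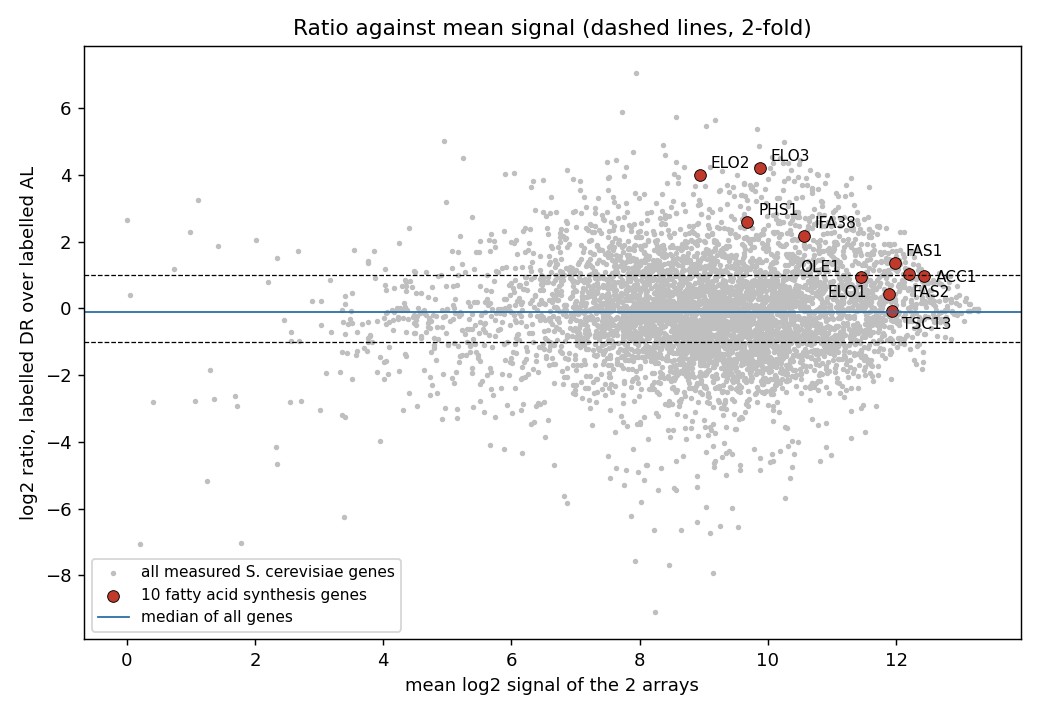
Log2 ratio of the DR-labelled array over the AL-labelled array (vertical axis) against the mean log2 signal of both arrays (horizontal axis) for 5449 genes in grey and the 10 fatty acid genes in red, with dashed lines at 2-fold. ELO3 (4.20) and ELO2 (3.98) lie near the upper edge of the grey points, and TSC13 (−0.09) lies near the median of all genes (blue line, −0.12).

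Enzymes that feed the pathway did not share 1 direction. ACS2, the acetyl-CoA synthetase used on glucose, had a signal of 3950 on the DR-labelled and 1364 on the AL-labelled array. ACS1, the isoenzyme of growth on non-fermentable carbon, had 221.6 on the DR-labelled and 5323 on the AL-labelled array. The acetyl-CoA synthetases thus lay on opposite sides, with log2 ratios of 1.53 and −4.59. BPL1, the ligase that attaches biotin to ACC1, was on the side of ACC1, with 747.2 on the DR-labelled and 348.4 on the AL-labelled array.

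Genes that activate or bind free fatty acids also split. FAT1, which activates and imports very long chain fatty acids, had a signal of 1467 on the DR-labelled and 279.1 on the AL-labelled array, just under background there. FAA4, an acyl-CoA synthetase for imported long chains, had 2562 on the DR-labelled and 787.8 on the AL-labelled array, whereas FAA2, the peroxisomal synthetase, had 219.2 on the DR-labelled and 1724 on the AL-labelled array. FAA1, FAA3 and the acyl-CoA binding protein gene ACB1 were within 2-fold, and the median log2 ratio of the 6 genes was −0.09. This median changed sign with the scaling and became 0.03 after centring.

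The separate fatty acid synthesis pathway of mitochondria, which makes the precursor of lipoic acid, had a median ratio near 1. At 2-fold, 0 of its 8 genes were higher on the DR-labelled array (20.5% of all genes) and 2 on the AL-labelled array (24.3%). The median log2 ratio was −0.01, which became 0.11 after centring. PPT2, which attaches the prosthetic group of the mitochondrial acyl carrier protein, had a signal of 167.1 on the DR-labelled and 445.7 on the AL-labelled array, and MCT1, the malonyl transferase, had 718.6 on the DR-labelled and 1459 on the AL-labelled array. HFA1, the mitochondrial counterpart of ACC1, was looked at after the values were seen and had 445.5 on the DR-labelled and 257.4 on the AL-labelled array, where it was under background.

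Genes of pathways that use acyl-CoA for membranes and storage lipids were mostly within 2-fold, as were 3007 of all 5449 genes. Of 9 acyltransferase and related genes of glycerolipids and sterol esters, 1 was more than 2-fold higher on the DR-labelled array (20.5% of all genes). On the AL-labelled array, 0 were more than 2-fold higher (24.3% of all genes). The 1 gene past 2-fold was LRO1, which makes triacylglycerol from phospholipids. LRO1 had a signal of 1080 on the DR-labelled and 306.6 on the AL-labelled array. The other 8 were within 2-fold, and the list's median log2 ratio was 0.56. Sphingolipid metabolism, a pathway that uses the very long chains at some of its steps, was covered by 17 genes. Of these 17, 2 were more than 2-fold higher on the DR-labelled array (20.5% of all genes) and 3 on the AL-labelled array (24.3%). The median log2 ratio of the 17 genes was 0.02, which became −0.12 after quantile normalization. SUR2, the sphinganine hydroxylase, had 2359 on the DR-labelled and 890.8 on the AL-labelled array, and LCB2, a subunit of the enzyme that starts the pathway, had 5351 on the DR-labelled and 2042 on the AL-labelled array.

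On the other side of the sphingolipid list, ISC1, which breaks down complex sphingolipids, had a signal of 595.4 on the DR-labelled and 1614 on the AL-labelled array, and CSH1, of mannose addition, had 484.5 on the DR-labelled and 1062 on the AL-labelled array. The ceramide synthase genes LAC1 and LAG1, looked at after the values were seen, had log2 ratios of 0.80 and 0.46. The enzymes that join the very long chains to the sphingoid base were thus within 2-fold, while ELO2 and ELO3 were not.

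Sterol synthesis, the other large consumer of acetyl-CoA for membranes, had a median close to that of the fatty acid genes. At 2-fold, 14 of 23 ergosterol genes were higher on the DR-labelled array (20.5% of all genes) and 0 on the AL-labelled array (24.3%). The median log2 ratio was 1.19, against 1.20 for the 10 fatty acid genes. In the study, sterol metabolism is instead among the terms of genes lowered on DR, opposite to the direction under these labels. ERG3 and ERG5 had log2 ratios of 3.49 and 2.83 as deposited, but both lay under background on the AL-labelled array, and with those signals raised to it they had 3.01 and 2.24. ERG4 and ERG25, above background on both arrays, had 2.76 and 2.72. ERG1 and ERG7, neighbouring steps from squalene to lanosterol, were the lowest, with −0.25 and −0.18.

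Peroxisomal beta-oxidation, which takes fatty acids apart, stood opposite. At 2-fold, 0 of 13 genes were higher on the DR-labelled array (20.5% of all genes) and 11 on the AL-labelled array (24.3%), and the median log2 ratio was −3.17. Genes that glucose represses thus had their higher signals on the array labelled with 2.0% glucose. The study instead lists peroxisome genes among those up on DR. Whether the labels are exchanged was not tested. POT1, the thiolase, had a log2 ratio of −7.57 and POX1, the acyl-CoA oxidase, one of −6.22, with both signals under background on the DR-labelled array, and −4.70 and −3.96 once raised to it. The other 2 genes were ANT1, the peroxisomal ATP carrier, with −0.12, which became 0.12 after quantile normalization and 0.20 without the trend on signal, and MDH3, peroxisomal malate dehydrogenase, with −0.50. All lists were written with results of these arrays known, and their medians describe these 2 arrays only.

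**Figure D3:**
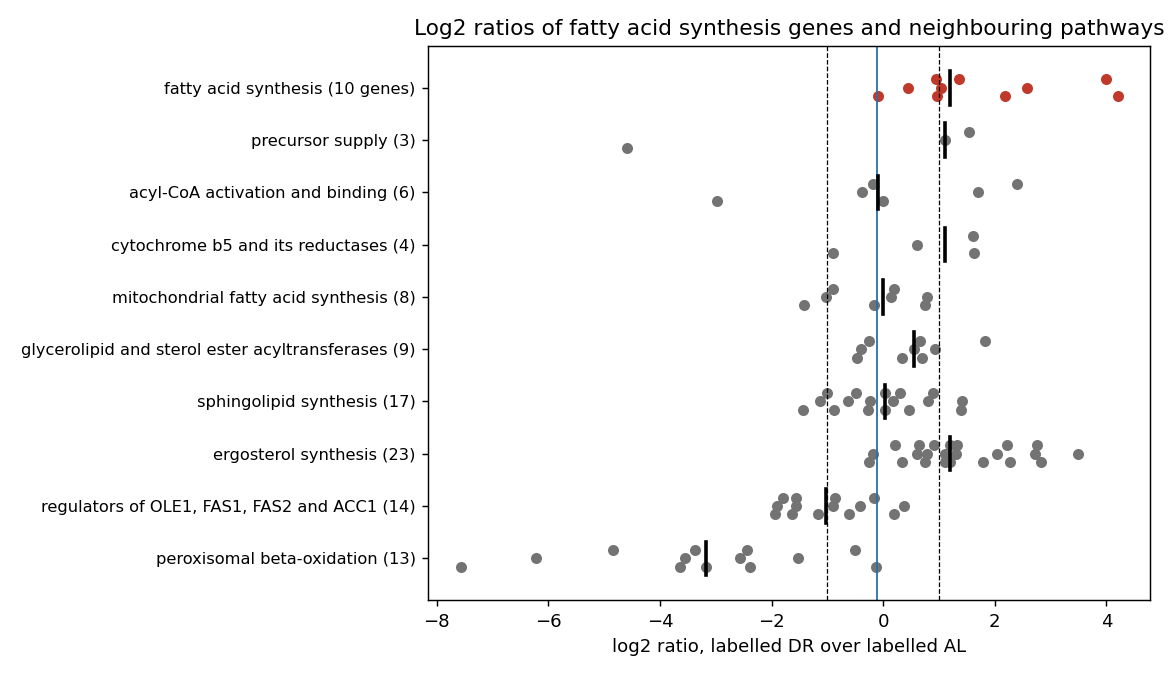
Log2 ratio of the DR-labelled array over the AL-labelled array (horizontal axis) for each gene of 10 lists, with the number of genes in brackets, a black bar at each list's median, the median of all genes as a blue line and 2-fold as dashed lines. The fatty acid genes (red, median 1.20) and the ergosterol genes (1.19) lie mostly to the right, and the beta-oxidation genes (−3.17) lie to the left.

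ELO3, ELO2, PHS1 and IFA38, from highest to lowest, kept the top places and this order among the 10 genes in each of the 4 alternatives that moved their ratios unequally, namely quantile normalization, removal of the trend on signal, raising signals to background and adding the background median. At 1.5-fold, 8 genes were higher on the DR-labelled array (29.3% of all genes) and 0 on the AL-labelled array (35.7%), and at 3-fold the 4 elongation genes ELO3, ELO2, PHS1 and IFA38 remained (11.5% of all genes), again with 0 on the AL-labelled array (12.7%). FAS2, ACC1 and OLE1 lay at the 2-fold threshold and crossed it: FAS2 had a ratio of 1.78 after quantile normalization, and ACC1 and OLE1 had 2.11 and 2.08 after median centring. Over all 7 alternatives the log2 ratio ranged from 3.84 to 4.52 for ELO3, from 2.79 to 4.26 for ELO2, from 2.37 to 2.91 for PHS1 and from 2.08 to 2.30 for IFA38. ELO1 ranged from 0.23 to 0.56 and FAS1 from 1.16 to 1.47.

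**Figure D4:**
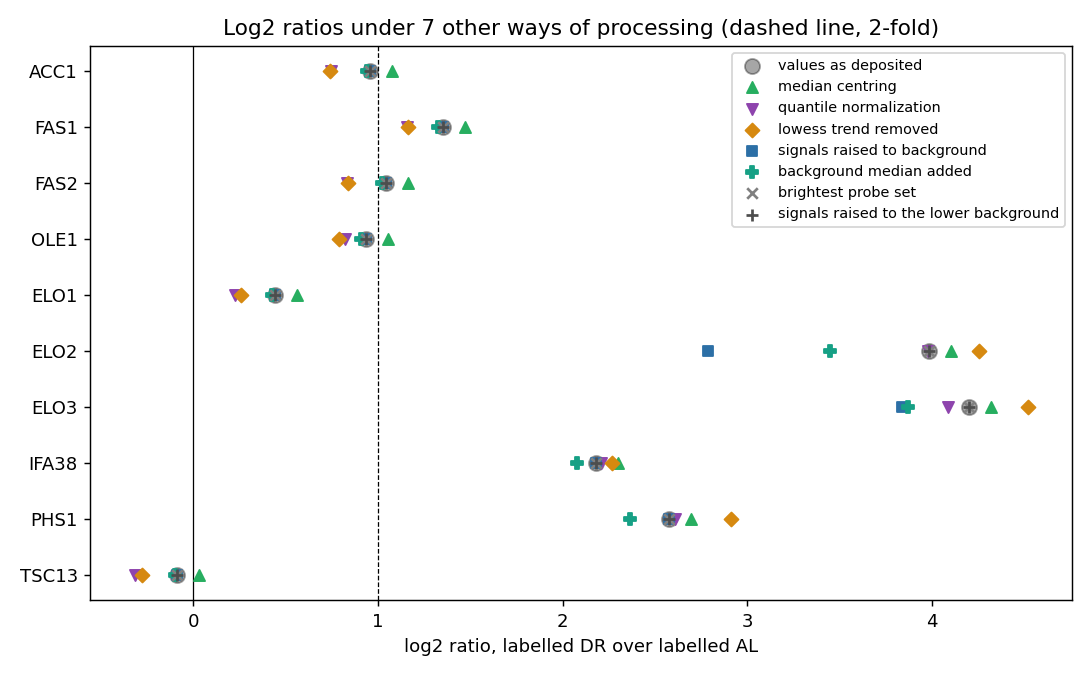
Log2 ratio of the DR-labelled array over the AL-labelled array (horizontal axis) of the 10 genes, with the values as deposited in grey and 7 other ways of processing as coloured symbols, and 2-fold as a dashed line. ELO2 moves most, to 2.79 with its signal on the AL-labelled array raised to background, and TSC13 stays near 0.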

How the data were processed

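RNA of 2 cultures was hybridized to Affymetrix GeneChip Yeast Genome 2.0 arrays, 1 per condition. The deposited table holds linear intensities per probe set, normalized for the authors by a service laboratory using Affymetrix's statistical algorithms. Which version was used, and how the arrays were scaled to each other, is not given in the sources used here. Conditions were taken from the submitters' labels.

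Of 10928 probe sets, 7244 carried 1 gene symbol in the platform annotation, 1 carried several and 3683 none. Gene identifiers of 5498 matched the RefSeq table of S. cerevisiae (assembly R64), which gave 5449 genes. Where a gene had several probe sets, their log2 signals were averaged. The ratio of the DR-labelled array over the AL-labelled array and its log2 were computed, and a gene was called past 2-fold, as in the study's methods. No replicates exist, so no test was run. The procedure was tested on simulated data.

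The 10 genes and the other lists were chosen with earlier results of these data known. The text names all 10 genes, in lists of up to 9 genes those past 2-fold, and in longer lists the 2 highest and 2 lowest ratios among genes above background on at least 1 array. The genes nearest in ratio to ELO2 and ELO3 were to be named too, but are left out since both ratios are bounds. ERG4 and ERG25 were added after the values were seen. Genes outside this rule are marked as looked at after the values were seen or stand beside those of their list within 2-fold.

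Alternatives were median centring, quantile normalization, removal of the lowess trend on signal (span 0.3), raising signals to background, adding the median background signal (24.6 on the DR-labelled and 57.6 on the AL-labelled array), the brightest probe set, thresholds of 1.5-fold and 3-fold, the mean in place of the median, and lists without genes under background on both arrays. Alternatives chosen after seeing the data were a lower background (below which 95% of probe sets with other gene names lay, 11.7 on the DR-labelled and 11.5 on the AL-labelled array), the median without genes under background, and the same settings on the other lists. Python 3.11.15 with numpy 2.4.6, pandas 2.3.3 and statsmodels 0.14.6 was used.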

Additional observations from a re-analysis of the deposited data

How the results depend on the processing

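The number of fatty acid genes more than 2-fold higher on the DR-labelled array was 6 as deposited and 5 to 8 over the scaling, background and probe set alternatives, and the number higher on the AL-labelled array was 0 in each of them. Their median log2 ratio of 1.20 ranged from 0.995 after quantile normalization to 1.76 for the mean in place of the median, and was 1.00 for the 8 genes above background on both arrays. ELO2 moved most, to a log2 ratio of 2.79 with its signal on the AL-labelled array raised to background. Medians near 0 changed sign: the mitochondrial list (−0.01) became 0.11 after centring and 0.03 after quantile normalization, the acyl-CoA activation list (−0.09) became 0.0261 after centring and 0.0291 without the trend on signal, and the sphingolipid list (0.02) became −0.12 after quantile normalization and −0.11 after removal of the trend. The medians of the other lists kept their sign, and 12 other values moved by over 1.5 times or off 0 (counts) or by over 0.69 (log2 ratios): that of ELO2, and 11 counts of 3 or fewer genes in the other lists. With signals raised to background, 768 genes were past 2-fold towards the DR-labelled and 1749 towards the AL-labelled array, against 1116 and 1326 as deposited, since the background was higher on the AL-labelled array. No paired analysis was possible because each condition had 1 array, and no array could be left out. Signals under the background of the AL-labelled array, set by STE6 alone, limit the ratios of ELO2 and ELO3 to bounds.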
